A study of Mus musculus with 14 samples.

Results

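Methionine adenosyltransferase and the polyamine enzymes were followed here as a set of 9 genes, Mat2a, Mat2b, Amd1, Amd2, Odc1, Srm, Sms, Smox and Sat1, out of 52550 genes counted in the study. The set was chosen by gene symbol, to cover S-adenosylmethionine synthesis and the making and breaking of polyamines, with an earlier reading of these same counts in view in which Mat2a was lower in wild-type runners. The values of Mat2a under running in wild-type mice are therefore given as a description of what the set was selected on. All 9 genes passed the filter on low counts.

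Methionine adenosyltransferase joins methionine and ATP into S-adenosylmethionine, the methyl donor of the cell. Mat2a encodes the catalytic subunit used outside the liver and Mat2b its regulatory subunit. Polyamines are made by a pair of short-lived enzymes, ornithine decarboxylase (Odc1), which makes putrescine, and S-adenosylmethionine decarboxylase (Amd1), which supplies the aminopropyl group. Spermidine synthase (Srm) and spermine synthase (Sms) then lengthen the chain, and spermine oxidase (Smox) and spermidine/spermine acetyltransferase (Sat1) take it down again. In skeletal muscle the pathway is known for following androgen and growth signals, and Smox is known as a gene whose level goes with fibre size.

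The samples were triceps of 14 male mice, read by 3′ mRNA sequencing, which counts 1 tag near the 3′ end of a transcript. Groups were WT littermates with no wheel running (WT control, n = 3), WT mice given 6 weeks of voluntary wheel running (WT running, n = 4), FLExDUX4 mice with no wheel running (n = 3) and FLExDUX4 mice with 6 weeks of running (n = 4). FLExDUX4 mice carry a human DUX4 transgene and are used as a model of facioscapulohumeral muscular dystrophy. The labels give no age, no Cre driver or inducer and no running distance, and the level of the transgene was not analysed here. Libraries held 3269357 to 6995811 gene counts. Mitochondrial transcripts took 20.5 to 39.8% of them. Skeletal muscle genes were abundant in all 14 libraries, with 33433 to 96499 counts of Ckm, the muscle creatine kinase. Levels are in CPM, the counts of a gene scaled to a common library size. Differences are log2 ratios from edgeR, with p-values adjusted over all 11088 genes tested, and a gene is called changed at an adjusted p under 0.05.

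Sequences of 3 of the genes, Mat2a, Amd1 and Amd2, bear on how their counts are read. Mat2a RNA is a known target of METTL16, which methylates hairpins in its 3′ UTR when S-adenosylmethionine is plentiful. These hairpins carry a 9-base core. Mat2a lies at chr6:72432799-72439558 on the minus strand of GRCm38, the build of all coordinates here. The annotation has Particl on the opposite strand there, with 115 counts over all mice and away from the 3′ end of Mat2a. The 3′ UTR of its 2804-base transcript, 1494 bases long, holds 5 copies of the core as spelled TACAGAGAA, the only spelling searched. They are shown with 9 bases on either side and the core in capitals, each named by the position of its first core base in the transcript.
Mat2a 1350: ggcgtaggtTACAGAGAAgccttcaag
Mat2a 2134: cttgtgataTACAGAGAAgtcacaggg
Mat2a 2313: tggtgtagcTACAGAGAAaccagcttc
Mat2a 2428: tggcgtaagTACAGAGAAgccatcacc
Mat2a 2647: ctggtgtggTACAGAGAAgccagcttg
The letters occur at least once in 4.18% of 39997 protein-coding transcripts of 1000 bases or more. Only 2 of those transcripts hold 5 copies, and both are of Mat2a. The match is one of letters, taken from the GENCODE transcript, and methylation was not measured here.

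Amd1 and Amd2 are shown because their transcripts are nearly the same. Amd1 (chr10:40287458-40302186, minus strand) has 8 exons and Amd2 (chr10:35708675-35711892, minus strand) has 1. Their transcripts, of 3204 and 3218 bases, were identical in 99.13% of aligned columns, with 14 mismatches. The start of each gene is shown from the RefSeq promoter table (GRCm38.p6), with the bases that both transcripts share in capitals and the 60 bases before them in lower case.
Amd1 chr10:40302157-40302246: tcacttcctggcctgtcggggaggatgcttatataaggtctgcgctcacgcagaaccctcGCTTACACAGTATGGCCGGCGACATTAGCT
Amd2 chr10:35711862-35711951: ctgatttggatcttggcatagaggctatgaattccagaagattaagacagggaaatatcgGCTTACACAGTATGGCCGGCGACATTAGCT
The shared run began within 2 bases of each start site and was 48 bases long, of which 30 are printed. Of the 60 bases before it, 18 were the same. The counts come from the other end of the transcript, where 420 of the 426 possible 75-base reads in the last 500 bases of Amd1 (98.59%) also occur in Amd2. The deposited counts gave Amd2 6.29 ± 1.26% (SD, n = 14) of the Amd1 and Amd2 total, with a range of 3.60 to 8.34% over mice. How reads that fit both genes were assigned is not given in the sources used here, so the Amd1 and Amd2 rows cannot be told apart and are uncertain as separate genes.

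Mat2a had a lower mean in runners than in controls of both genotypes. The difference was past the threshold in WT and not in FLExDUX4, and the difference between the genotypes was itself not called. In WT control mice its level was 362, 182 and 264 CPM, in replicate order, and in WT running mice 149, 165, 151 and 153 CPM. The groups did not overlap, and the 4 runners lay close together below 3 widely spread controls. FLExDUX4 control mice had 199, 142 and 246 CPM and FLExDUX4 running mice 133, 135, 157 and 171 CPM, and these groups overlapped through FLExDUX4 control 2.

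Means ± SD of Mat2a were 269 ± 90.0 CPM in WT control (n = 3), 154 ± 7.22 in WT running (n = 4), 196 ± 52.1 in FLExDUX4 control (n = 3) and 149 ± 18.1 in FLExDUX4 running (n = 4). The order was WT control, FLExDUX4 control, WT running and FLExDUX4 running, and no neighbours in this order differed by more than the larger of their SDs. Running in WT gave a log2 ratio of -0.80 ± 0.18 (SE, adjusted p 0.0411), as described for the choice of the set. Running in FLExDUX4 gave -0.40 ± 0.18 (adjusted p 0.710). The difference between these 2 ratios, the interaction of genotype and running, was 0.41 ± 0.26 (adjusted p 0.972), so a difference in the response of the 2 genotypes was not shown. Averaged over genotype, running gave -0.60 ± 0.13 (adjusted p 0.0203), a value that contains the WT mice the set was chosen with. In the authors' deposited table the log2 ratio of WT control over WT running was 0.72 for Mat2a, with an adjusted p of 0.00171.

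**Figure D1:**
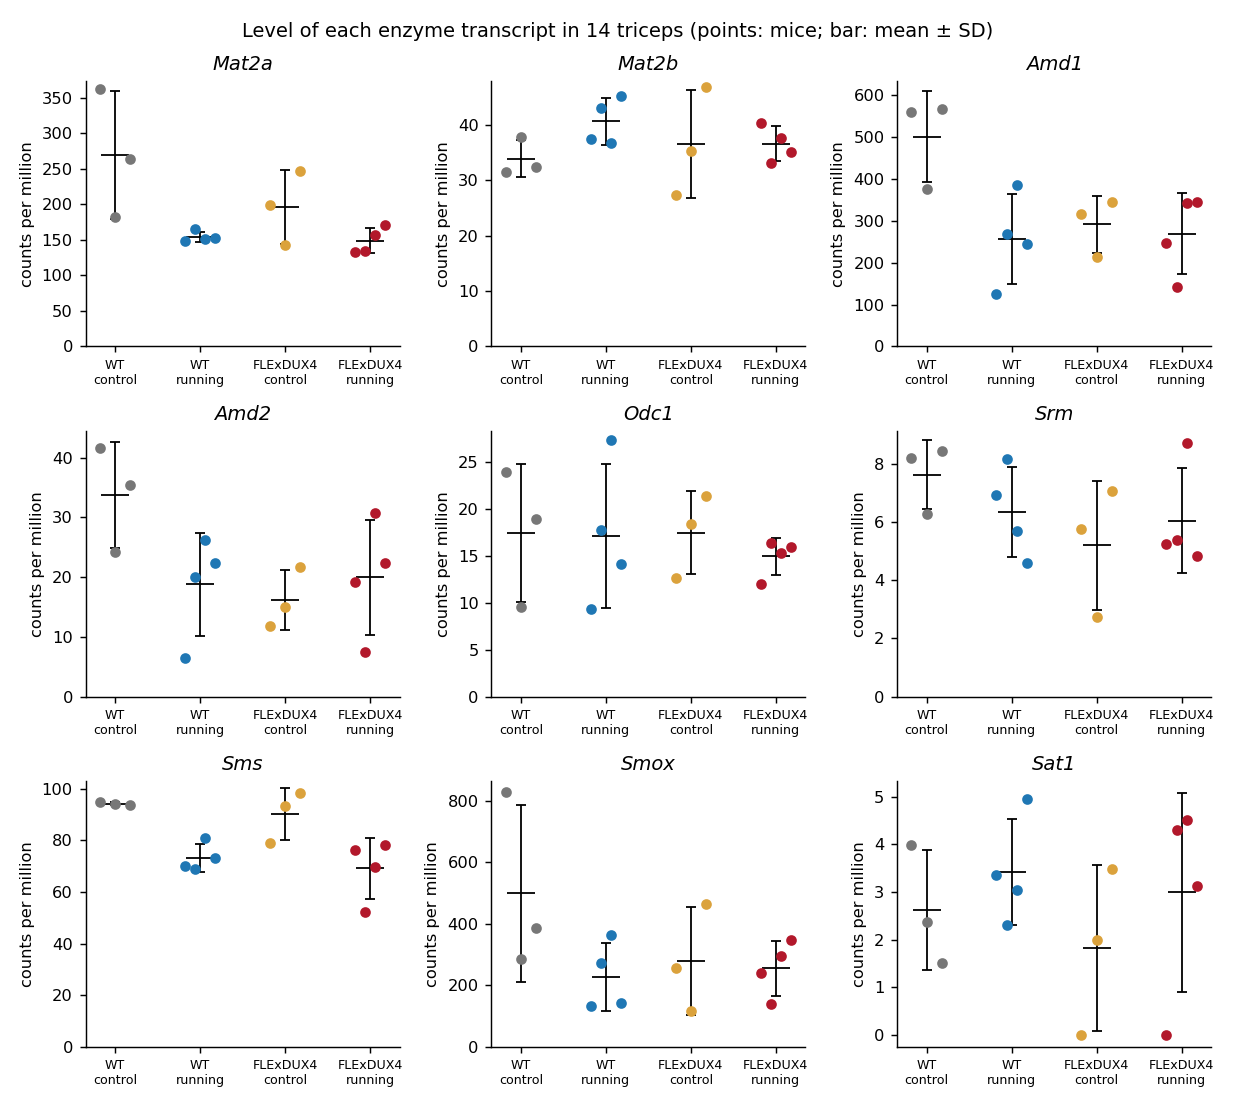
Level of each of the 9 transcripts in CPM (vertical axes, linear) in the 4 groups, with 1 point per mouse and bars for mean ± SD. The 4 WT running mice lie below all 3 WT control mice for Mat2a and Sms, and Sat1 was at 0 in 2 FLExDUX4 mice.

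The Mat2a call in WT was lost in several settings, in most of them with little change in the log2 ratio. Without WT control 1, the mouse with the highest Mat2a, the log2 ratio was -0.53 (adjusted p 0.326). The call was lost when any 1 of 8 of the 14 mice was left out, FLExDUX4 mice included, and the adjusted p ranged from 0.00876 to 0.326. The mice were WT control 1 and 3, WT running 1, 2 and 4, FLExDUX4 control 1, and FLExDUX4 running 1 and 3. Without any of these other than WT control 1 the log2 ratio stayed at -0.84 to -0.79. With library sizes taken from the spike-in RNAs the ratio was -0.43 (adjusted p 0.148). That scaling moved the median of all genes to 0.37 for running in WT, and the split of calls over all genes from 44 higher and 11 lower to 602 higher and 2 lower. The call was also lost with limma-voom (-0.75) and with the slow fibre level as a covariate (-0.71), and adjusted p over the alternatives, mice left out apart, ran from 4.36e-05 to 0.579. That slow level, a mean log2 CPM, was 1.86 to 2.24 in WT control and 2.69 to 5.885 in WT running. It goes together with running in WT, so the covariate fit cannot fully separate them.

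**Figure D2:**
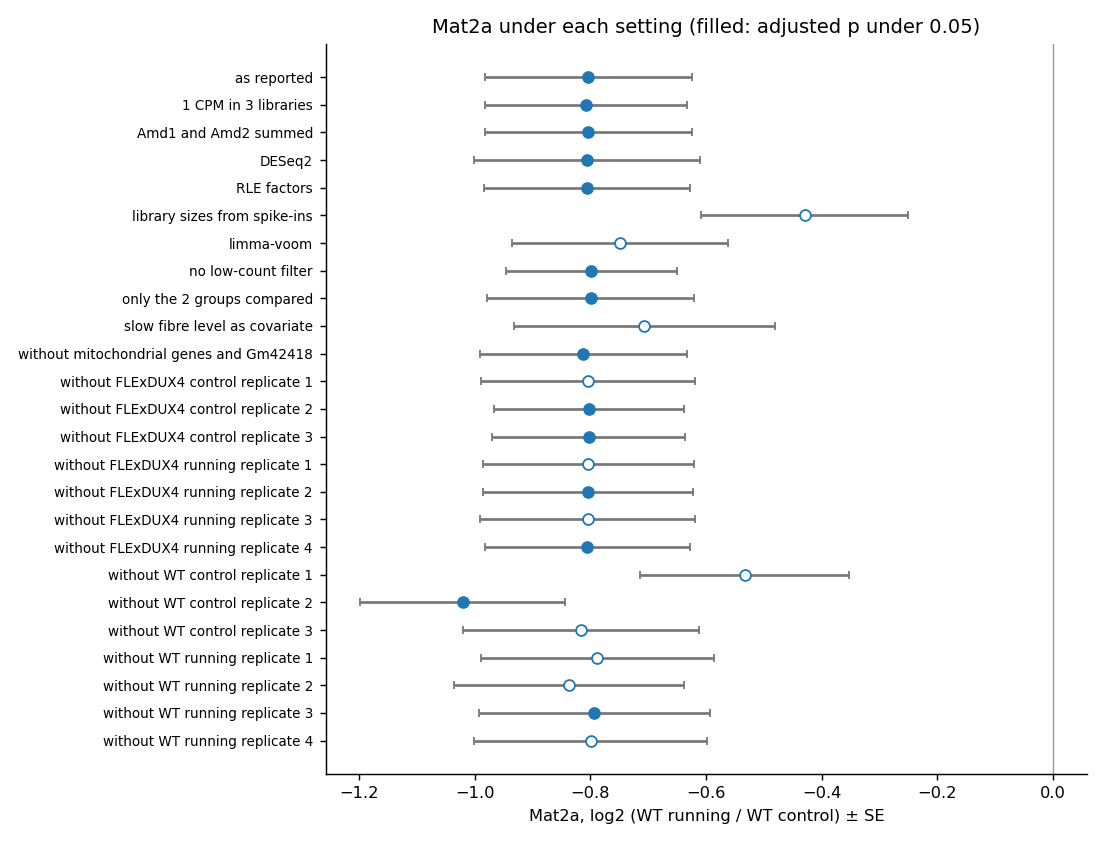
Mat2a log2 ratio of WT running over WT control (horizontal axis, ± SE) under each setting and with each mouse left out, filled where the adjusted p was under 0.05. The value stayed below 0 in every setting drawn, between -1.02 without WT control 2 and -0.43 with spike-in library sizes.

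Genes that act on Mat2a RNA, or that sense or carry S-adenosylmethionine, gave no call. Of 7 such genes, all 7 were tested and 0 were called in either direction under running in WT or in FLExDUX4. Mettl16, the methyltransferase of the hairpins, is given for its role and gave -0.06 ± 0.25 in WT and 0.34 ± 0.25 in FLExDUX4. Nudt21, a 3′ end processing factor, had the smallest p of the list in both and gave 0.69 ± 0.51 and 0.80 ± 0.50, uncalled.

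Mat2b, the regulatory subunit (chr11:40679314-40695203, minus strand), was not called, and its mean was higher in WT runners than in WT controls. Its level was 31.6, 37.8 and 32.5 CPM in WT control and 37.4, 43.2, 36.7 and 45.3 CPM in WT running. It was 27.4, 35.4 and 47.0 CPM in FLExDUX4 control and 40.4, 33.1, 37.6 and 35.2 CPM in FLExDUX4 running. The groups overlapped in each comparison. Running gave 0.26 ± 0.19 in WT (adjusted p 0.711) and -0.01 ± 0.19 in FLExDUX4 (adjusted p 0.996). With spike-in library sizes the FLExDUX4 value turned to 0.03.

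Amd1, the decarboxylase that commits S-adenosylmethionine to polyamines, was highest in WT control mice. These had 559.9, 375 and 567 CPM, against 125, 269, 386 and 245 CPM in WT running mice, and the 2 groups overlapped only because WT running 3 lay above WT control 2. FLExDUX4 control mice had 316, 214 and 344 CPM, all below the WT controls. FLExDUX4 running mice had 248, 142, 343 and 345 CPM and overlapped their own controls.

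Mean Amd1 was 501 ± 109 CPM in WT control, and 292 ± 68.3, 269.5 ± 96.2 and 256 ± 107 CPM in FLExDUX4 control, FLExDUX4 running and WT running, which did not differ from each other beyond their SDs. The log2 ratio was -0.97 ± 0.39 for running in WT (adjusted p 0.401) and -0.11 ± 0.39 for running in FLExDUX4 (adjusted p 0.983). The interaction was 0.85 ± 0.55 (adjusted p 0.976). None of these was called by edgeR. The authors' deposited table gave Amd1 a log2 ratio of 0.70 for WT control over WT running, with an adjusted p of 0.0445. This gene was thus past 0.05 there and not here, also not with DESeq2 here (-0.97, adjusted p 0.213). The authors' ratio is smaller in size than the one here, and why was not tested.

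Amd2, whose transcript shares the Amd1 sequence printed above, had 41.6, 24.2 and 35.5 CPM in WT control, 6.53, 20.1, 26.2 and 22.3 in WT running, 11.8, 15.0 and 21.7 in FLExDUX4 control and 19.2, 7.54, 30.7 and 22.4 in FLExDUX4 running. The 2 control groups did not overlap. Running in WT gave -0.85 ± 0.45 (adjusted p 0.559). With the counts of both genes summed, running gave -0.96 in WT and -0.09 in FLExDUX4 (adjusted p 0.413 and 0.987). Across groups the share of Amd2 in that sum stayed between 5.35 ± 1.55% in FLExDUX4 control and 6.65 ± 1.40% in WT running. Rows for 4 Amd pseudogenes held 0 to 70 counts over all mice.

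Odc1 (chr12:17544794-17551505, plus strand), the other decarboxylase and the source of putrescine, differed little between groups beside its spread. It had 23.98, 9.51 and 18.95 CPM in WT control and 9.30, 17.8, 27.4 and 14.2 CPM in WT running. It had 12.6, 18.5 and 21.4 CPM in FLExDUX4 control and 12.1, 16.4, 15.4 and 15.96 CPM in FLExDUX4 running. The 4 groups overlapped throughout, and the spread within WT mice, from 9.30 to 27.4 CPM among runners, was wider than any difference between groups. Running gave -0.03 ± 0.31 in WT and -0.24 ± 0.31 in FLExDUX4 (adjusted p 0.989 and 0.950). The WT value turned to 0.32 with spike-in library sizes and to 0.19 with the slow fibre level as a covariate.

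Regulators of Odc1 protein and polyamine uptake were measured beside it. Of 5 genes listed, 3 were tested and 0 were called under running in either genotype. Oaz2, an antizyme, which sends ornithine decarboxylase to the proteasome, had the smallest p of the list in both genotypes and gave 0.12 ± 0.21 in WT and -0.47 ± 0.20 in FLExDUX4 (adjusted p 0.904 and 0.710). Antizyme inhibitor Azin1 gave 0.13 ± 0.23 in WT and 0.21 ± 0.23 in FLExDUX4. Across the 14 mice, with group means removed, Azin1 was among the 5 named genes most like Odc1 (Pearson's r 0.88 over the deviations), a description over libraries that share scaling and depth.

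Sms, spermine synthase (chrX:157443855-157492287, minus strand), had lower means in runners of both genotypes by similar amounts. WT control mice had 94.9, 94.0 and 93.9 CPM, the narrowest group of the 9 genes by its SD over its mean, and WT running mice 70.1, 68.9, 80.8 and 73.1 CPM. FLExDUX4 control mice had 79.0, 93.5 and 98.5 CPM and FLExDUX4 running mice 76.4, 52.2, 69.5 and 78.4 CPM. All runners lay below all controls of their own genotype.

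The log2 ratio of Sms was -0.36 ± 0.15 for running in WT (adjusted p 0.364) and -0.38 ± 0.15 in FLExDUX4 (adjusted p 0.710). The interaction was -0.02 ± 0.22 (adjusted p 0.999). Averaged over genotype, running gave -0.37 ± 0.11 with an adjusted p of 0.0847, which did not pass 0.05. It passed with DESeq2 (-0.38, adjusted p 0.0166) and when FLExDUX4 running 4 or WT running 3 was left out (adjusted p 0.0417 and 0.0485). With spike-in library sizes Sms gave -0.0035 in WT beside a median of all genes of 0.37, and -0.35 in FLExDUX4 beside a median of 0.05. The value for Sms in WT is therefore one relative to the other genes.

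Srm, spermidine synthase (chr4:148591503-148594993, plus strand), was counted at 11 to 55 reads a mouse. Its level was 8.203, 6.27 and 8.42 CPM in WT control, 6.93, 8.17, 5.68 and 4.601 in WT running, 5.76, 2.74 and 7.08 in FLExDUX4 control and 5.25, 5.38, 8.73 and 4.85 in FLExDUX4 running. All 4 groups overlapped. Running gave -0.26 ± 0.39 in WT and 0.18 ± 0.40 in FLExDUX4 (adjusted p 0.889 and 0.973), and the WT value turned to 0.10 with spike-in library sizes.

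Smox (chr2:131491496-131525922, plus strand), spermine oxidase, which returns spermine to spermidine, varied most between mice among the genes with counts in every mouse. It had 828, 284 and 387 CPM in WT control and 134, 274, 363 and 142 CPM in WT running. It had 257, 115 and 466 CPM in FLExDUX4 control and 239, 139, 296 and 347 CPM in FLExDUX4 running. The highest mouse was at 7.22 times the lowest, and WT control 1 stood above all others. Mean Smox was 499 ± 289, 228 ± 110.5, 279 ± 177 and 255 ± 89.5 CPM in these groups, in the same order.

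Running gave Smox a log2 ratio of -1.13 ± 0.56 in WT (adjusted p 0.534) and -0.13 ± 0.56 in FLExDUX4 (adjusted p 0.987). Without WT control 1, the highest mouse, the WT value was -0.56. The interaction was 1.00 ± 0.80 (adjusted p 0.976). In the authors' deposited table Smox had an adjusted p of 0.105 for WT control against WT running.

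Sat1 (chrX:155213132-155216449, minus strand), the acetyltransferase that marks polyamines for breakdown and export, was near the limit of detection. Counts ran from 0 to 28 a mouse, and levels were 4.00, 2.38 and 1.50 CPM in WT control, 3.36, 2.31, 3.05 and 4.96 in WT running, 0, 1.99 and 3.47 in FLExDUX4 control and 0, 4.31, 4.52 and 3.14 in FLExDUX4 running. A count of 0, which allows up to 3 counts, set upper limits of 0.823 CPM in FLExDUX4 control 1 and 0.583 CPM in FLExDUX4 running 1, for counting error only. Running gave 0.36 ± 0.79 in WT and 0.59 ± 0.81 in FLExDUX4 (adjusted p 0.939 and 0.953), and the WT value was -0.0054 with the slow fibre level as a covariate. Of 3 other breakdown genes, Paox and Sat2 were tested and neither was called. Paox, an acetylpolyamine oxidase, had the smaller p in both genotypes and gave 1.15 ± 0.91 in WT and 0.54 ± 0.87 in FLExDUX4.

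**Figure D3:**
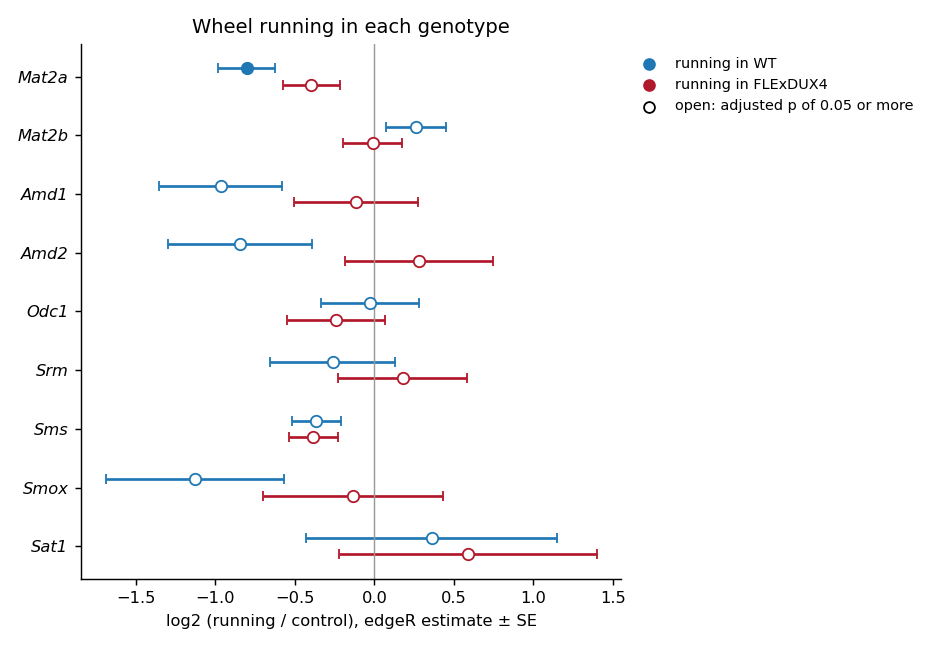
Log2 ratio of running over control (horizontal axis, edgeR estimate ± SE) for each of the 9 genes in WT (blue) and FLExDUX4 (red), filled where the adjusted p was under 0.05. Mat2a in WT is the only filled point, Sms has like values in both genotypes, and Amd1, Amd2 and Smox have WT values below -0.8 and FLExDUX4 values between -0.13 and 0.28.

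Counted over the set, running in WT gave 2 genes above 0 and 7 below, with a median log2 ratio of -0.36 beside 0.01 over all genes tested. Mat2a was the 1 gene called, where 0.496% of all genes were called, and nothing is read from this since that contrast was used for the choice. Mat2a and Sms were the 2 of 9 genes whose groups did not overlap, against 10.3% of all genes. Mat2a enters that count and the median, so neither is read as a result about the set. Apart from Mat2a, Sms alone was without overlap. Running averaged over genotype gave 1 call, Mat2a again, against 0.857% of all genes, with 2 genes above 0, 7 below and a median of -0.28. That contrast contains the same WT mice, so its call is not read as a result either. There Amd1 gave -0.54, Amd2 -0.28, Odc1 -0.13, Srm -0.04, Smox -0.63, Mat2b 0.12 and Sat1 0.47, none called.

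Running in FLExDUX4 gave 3 genes above 0, 6 below and a median of -0.11, beside 0.01 over all genes. No gene of the set was called, and 0% of all genes were. Groups did not overlap for Sms alone, 1 of 9 genes, against 7.17% of all genes. Over all genes 738 had an unadjusted p under 0.05, and DESeq2 called 1 gene and limma-voom 0. Running in FLExDUX4 and running in WT share no mice.

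Genotype was compared in controls and in runners. In controls, FLExDUX4 over WT gave 2 genes above 0, 7 below and a median of -0.46, beside 0.00 over all genes. No gene of the set was called and 0% of all genes were, with 554 genes at an unadjusted p under 0.05, 2 called by DESeq2 and 0 by limma-voom. Mat2a gave -0.46 ± 0.19, Amd1 -0.78 ± 0.42 and Smox -0.83 ± 0.61 (adjusted p 0.969, 0.972 and 0.976). Every FLExDUX4 control had a higher slow fibre level than every WT control, at 3.64 to 5.14 beside 1.86 to 2.24. With that level as a covariate Mat2a gave -0.36 and Amd1 -0.29, uncalled. The fit cannot fully separate that level from genotype in controls. Amd1 and Amd2 were the 2 of 9 genes without overlap, and they share nearly all of their 3′ sequence. The background was 11.4% of all genes. This comparison uses the same WT control mice as running in WT, so the low values in both are not independent of each other. Amd2 gave -1.04, Srm -0.53, Sat1 -0.45, Odc1 0.01 and Mat2b 0.12. Sms gave -0.06 ± 0.16 and turned to 0.25 with spike-in library sizes.

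In runners, FLExDUX4 over WT gave 3 genes above 0, 6 below and a median of -0.08, with 0 called, against 0% of all genes, and 0 of 9 without overlap, against 2.51% of all genes. Ratios were -0.05 for Mat2a, -0.15 for Mat2b, 0.07 for Amd1, 0.09 for Amd2 and -0.20 for Odc1. They were -0.09 for Srm, -0.08 for Sms, 0.16 for Smox and -0.22 for Sat1, each within its SE of 0. Over all genes 350 had an unadjusted p under 0.05, and neither DESeq2 nor limma-voom called any (0 and 0).

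The interaction was above 0 for 6 of the 9 genes, with a median of 0.41 beside -0.01 over all genes. It uses the same WT control mice as running in WT and genotype in controls, so its values are not independent of theirs. Amd2 had 1.13 ± 0.65, Smox 1.00 ± 0.80 and Amd1 0.85 ± 0.55, each under 2 SEs. Srm had 0.44, Mat2a 0.41, Sat1 0.23, Sms -0.02, Odc1 -0.21 and Mat2b -0.27. No gene of the set was called and 0% of all genes were, with 537 at an unadjusted p under 0.05, 1 called by DESeq2 and 0 by limma-voom. A different response to running in the 2 genotypes was not detectable in these mice for any of the 9 genes.

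Across mice the highest correlations, apart from that of Amd1 with Amd2, were those of Smox with Amd1 and with Mat2a. Pearson's r of log2 CPM over the 14 mice was 0.86 for Amd1 with Smox, 0.81 for Mat2a with Smox and 0.74 for Mat2a with Amd1. With group means removed the values were 0.80, 0.80 and 0.52. Other pairs lay in the same range. Over the 14 mice Amd1 with Sms gave 0.68, Mat2a with Sms 0.63 and Srm with Smox 0.61. With group means removed Mat2a with Srm gave 0.62, Amd1 with Odc1 0.60, Odc1 with Smox 0.59 and Amd1 with Sms 0.58, each above Mat2a with Amd1. Amd1 and Amd2, at 0.91 on both scales, share nearly all of their 3′ sequence. Mat2b with Mat2a gave -0.27, and Sat1 with Smox gave 0.03. These correlations are descriptions over libraries that share scaling and muscle makeup, and no test was made of them.

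**Figure D4:**
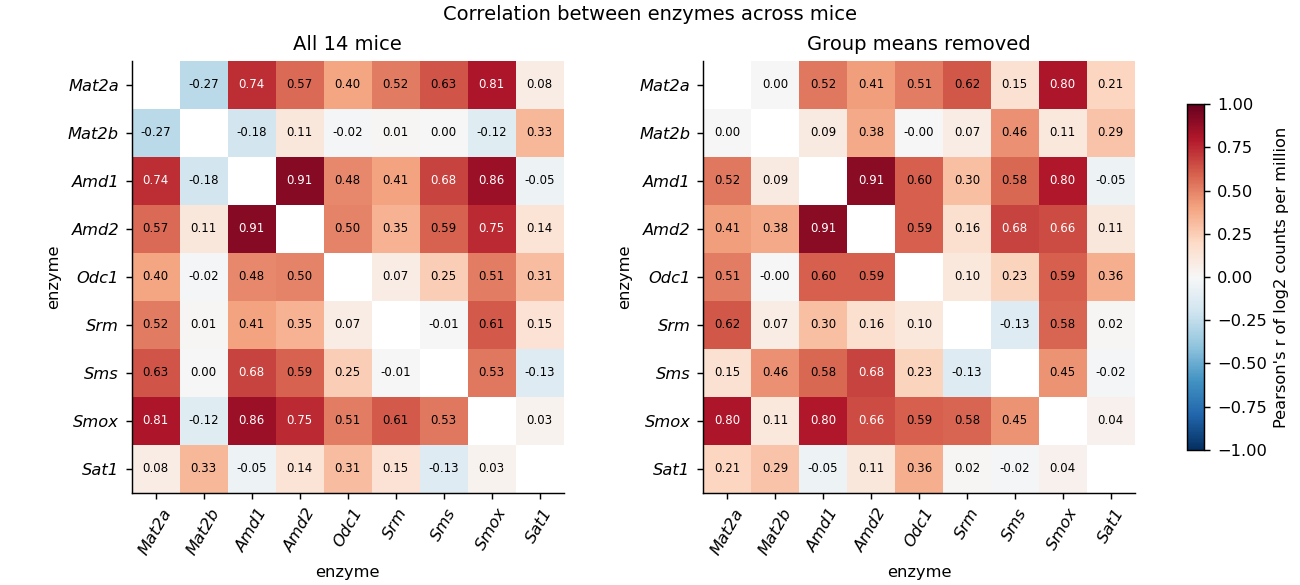
Pearson's r of log2 CPM between each pair of the 9 genes over 14 mice (left) and over the same mice after each group's mean was taken off (right), red for positive and blue for negative. Pairs of Mat2a, Amd1, Amd2 and Smox have values from 0.57 to 0.91 on the left, while Mat2b with Mat2a has -0.27 and Sat1 with Smox 0.03. Sms there has 0.68 with Amd1, 0.63 with Mat2a, 0.59 with Amd2 and 0.53 with Smox. On the right Mat2a with Amd2 has 0.41 and Amd2 with Sms 0.68.

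The genes most like a member over the 14 mice were listed by Pearson's r, leaving out predicted genes. Most like Amd1 were Pgm2 (r 0.95), Ckm (0.95), Eef2k (0.94), Pitpna (0.92) and Gpd1 (0.92). Most like Smox were Pfkm (0.92), Bpgm (0.88), Nt5dc3 (0.87), Eno3 (0.87) and Tpbgl (0.86). Of these, Ckm is muscle creatine kinase, and Pfkm and Eno3 are glycolytic enzymes of muscle. Most like Mat2a were Sh3bgr (0.90), Jarid2 (0.89), Dlgap4 (0.89), Prkab2 (0.88) and the mitochondrial transfer RNA mt-Tt (0.87). Most like Odc1 were Ccl6 (0.85), Zfp592 (0.85), Gabarapl1 (0.83), Vps18 (0.82) and Arrdc2 (0.81). With group means removed, Pgm2 stayed first for Amd1 (0.96), Mylk4 was first for Smox (0.92), Svbp for Mat2a (0.90) and Zfp592 for Odc1 (0.90). By Spearman's rho, Ckm was first for Amd1 (0.96), Bpgm for Smox (0.92), Mllt11 for Mat2a (0.93) and Zfp592 for Odc1 (0.89).

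Promoters of Mat2a, Amd1 and Smox, the genes of the highest correlations above, are shown, from 250 bases before to 30 after the RefSeq start (GRCm38.p6, 5′ to 3′ on the gene's strand). Capitals mark the letters TATAA, the GC box GGGCGG and the CCAAT box, each searched on both strands.
Mat2a chr6:72439527-72439806: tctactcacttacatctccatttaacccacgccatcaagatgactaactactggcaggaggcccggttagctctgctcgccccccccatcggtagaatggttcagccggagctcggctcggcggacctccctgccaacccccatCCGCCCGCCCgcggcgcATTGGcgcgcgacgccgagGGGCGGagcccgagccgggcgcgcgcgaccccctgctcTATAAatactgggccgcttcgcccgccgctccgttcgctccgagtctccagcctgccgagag
Amd1 chr10:40302159-40302438: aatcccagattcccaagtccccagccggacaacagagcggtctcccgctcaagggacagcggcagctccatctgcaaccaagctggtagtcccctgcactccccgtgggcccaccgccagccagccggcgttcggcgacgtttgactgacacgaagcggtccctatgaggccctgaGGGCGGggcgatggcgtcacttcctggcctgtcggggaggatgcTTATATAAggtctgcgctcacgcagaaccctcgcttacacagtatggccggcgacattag
Smox chr2:131491612-131491891: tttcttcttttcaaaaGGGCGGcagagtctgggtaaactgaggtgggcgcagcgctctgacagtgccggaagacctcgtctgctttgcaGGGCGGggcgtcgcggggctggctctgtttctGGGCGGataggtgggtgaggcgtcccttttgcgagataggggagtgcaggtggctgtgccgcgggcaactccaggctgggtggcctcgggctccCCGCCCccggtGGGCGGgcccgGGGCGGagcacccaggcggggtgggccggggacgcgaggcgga
Mat2a held 1 TATAA at -32, 3 GC boxes, of which 2 overlap, and 1 CCAAT at -89. Amd1 held TATAA on both strands at -30 and -27, which overlap, and 1 GC box at -74. Smox held 6 GC boxes and neither of the others. Among 27025 promoters of the same length, 24.7% held TATAA, 34.91% a GC box and 36.61% CCAAT. The E-box CACGTG, found in 6.89%, was in none of the 3 and occurred in 1 start site of Sms, at -196. The cAMP response element TGACGTCA (1.83%) and the amino acid response element TGATGCAA (0.91%) were in none of the 8 genes with a promoter in the table. The table held 8 of the 9 genes, and a match is one of letters alone.

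Of the marker lists of muscle makeup, those for slow fibre, fast fibre, clock, endothelial and red blood cell genes are given by their levels. A fit with such a level as a term was made for slow fibres only. In whole triceps, fewer cells of a type and less RNA per cell cannot be told apart. The 12 slow fibre genes tested had a summed level of 50.2 to 66.0 CPM in WT control, 149 to 861 in WT running, 215 to 548 in FLExDUX4 control and 68.7 to 1133 in FLExDUX4 running. Under running in WT 12 of 12 were above 0 and 0 were called. Averaged over genotype 1 was called, Casq2, the cardiac and slow muscle calsequestrin, which rose by 1.57 (adjusted p 0.0468). With the slow fibre covariate the ratio was 0.91, uncalled, but Casq2 is itself among the genes averaged into that covariate. The fit therefore adjusts Casq2 partly for itself, and nothing is read from that loss. DESeq2 gave Casq2 1.58 without an adjusted p, and so no call. The Casq2 call was also lost with limma-voom (1.30), at a filter of 1 CPM in 3 libraries (1.57, adjusted p 0.0547) and without any 1 of 10 mice (1.51 to 1.66). Left out one at a time, WT running 1 and 3 and FLExDUX4 running 2 and 4 were the mice that did not end it. The 11 fast fibre genes tested had a summed level of 121380 to 125600 CPM in WT control and 72710 to 108470 in WT running. They had 106440 to 117990 CPM in FLExDUX4 control and 76030 to 109810 in FLExDUX4 running. Myh4, the fast myosin, took 3.70 ± 0.36% of counts in WT control and 1.97 ± 0.65% in WT running (exact permutation test, two-sided, p = 0.0286, the smallest this design allows, and 0.171 adjusted over 6 tests), so the adjusted value did not pass 0.05.

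With the slow fibre level of each mouse as a covariate, running in WT gave -0.71 for Mat2a, -0.50 for Amd1, -0.69 for Smox and -0.27 for Sms. Adjusted p was 0.579 for Mat2a and 0.978 for Amd1. Every WT runner had a higher slow level than every WT control, so the fit cannot fully separate that level from running in WT. In FLExDUX4 the Mat2a value was -0.39, beside -0.40 without it. Among runners, WT running 1 and FLExDUX4 running 2 had the highest slow level of their groups, and the lowest Amd1 of their groups at 125 and 142 CPM. FLExDUX4 running 4 had the lowest slow level of its group, and Amd1 at 345 CPM and Smox at 347 CPM, the highest there. Other mice did not follow that order. WT running 2 had the lowest slow level of its group, and its Amd1 and Smox, at 269 and 274 CPM, lay below the 386 and 363 CPM of WT running 3. FLExDUX4 control 3 had the highest slow level of its group and also its highest Mat2a, Amd1 and Smox, at 246, 344 and 466 CPM.

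**Figure D5:**
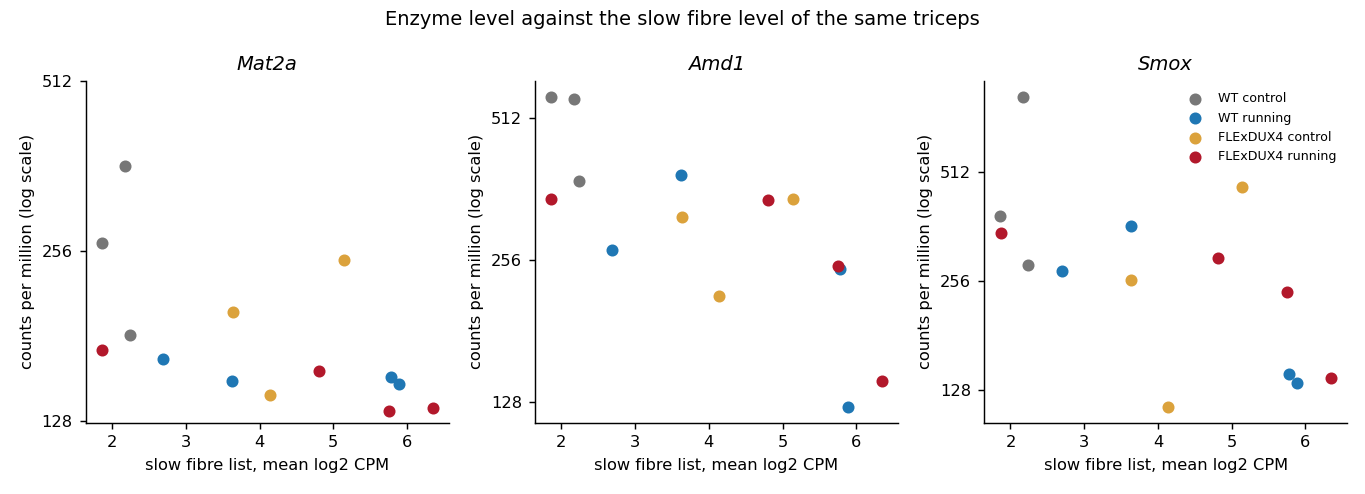
Mat2a, Amd1 and Smox in CPM (vertical axes, log scale) against the mean log2 CPM of the slow fibre genes of the same mouse (horizontal axes), coloured by group. The 3 WT control mice lie together at 1.86 to 2.24 on the horizontal axis, and runners of both genotypes are spread from 1.87 to 6.34.

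Other marker lists had few genes called, and no list was tested as a whole. Clock genes, 15 tested, had a summed level of 491 to 618 CPM in WT control and 295 to 438 in WT running, and of 475 to 616 in FLExDUX4 control and 349 to 462 in FLExDUX4 running. Nr1d2 and Tef were the 2 called lower averaged over genotype, at log2 ratios of -0.74 and -0.76 (adjusted p 0.00773 for both). With the slow fibre level as a covariate the ratios were -0.57 and -0.66, no longer called (adjusted p 0.130 and 0.114). Both calls held in the other alternatives, limma-voom included (adjusted p 0.0137 for both). They also held without any 1 mouse, with a largest adjusted p of 0.0426, for Tef without FLExDUX4 control 1. Endothelial genes, 7 tested, had 138 to 148 CPM in WT control and 203 to 290 in WT running, and Kdr, a receptor of vascular growth factor, rose by 1.21 in log2 (adjusted p 0.0411). In FLExDUX4 these genes had 171 to 186 CPM in controls and 131 to 229.8 in runners. The Kdr call in WT was lost with limma-voom (1.10), with the slow fibre covariate (0.63), and without any 1 of 9 mice (0.89 to 1.25, largest adjusted p 0.196, without WT control 1). Averaged over genotype, Kdr rose by 0.90 (adjusted p 0.0197). That averaged call was lost with limma-voom (0.83), with the slow fibre covariate (0.57), and without WT control 1 or 3, WT running 4 or FLExDUX4 control 1 (0.88 to 0.94). Red blood cell genes, 5 tested, had 441 to 955 CPM in WT control and 1134 to 1841 in WT running, and 672 to 989.6 in FLExDUX4 control and 478 to 1743 in FLExDUX4 running, with 0 called. Lists for myeloid cells, fibroblasts, satellite cells, tendon, adipocytes, nerve, fast fibres and the unfolded protein response had 0 genes called under running in either genotype. The part of these lists in the Mat2a, Amd1 and Sms values was not tested.

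The rest of the pathway held 1 gene called under running, Got1. In the methionine cycle and methyl transfer list, 9 of 15 genes were tested and 0 were called in either direction under running in either genotype, and Mat1a, Bhmt and Bhmt2 were at 0 counts in all mice. Mtrr, methionine synthase reductase, had the smallest p in FLExDUX4 and gave 0.87 ± 0.38 there and -0.38 ± 0.35 in WT, uncalled. Nnmt, which methylates nicotinamide, had the smallest p in WT and gave -1.82 ± 1.07, uncalled. In the salvage list, which returns the by-product of polyamine synthesis to methionine, 7 of 7 were tested and 1 was called. Got1, a transaminase that also serves the malate-aspartate shuttle, rose by 1.12 ± 0.23 in WT (adjusted p 0.0430) and gave 0.59 ± 0.23 in FLExDUX4 (adjusted p 0.710). That call was lost with limma-voom (1.08, adjusted p 0.138), with the slow fibre covariate (0.66, adjusted p 0.273) and without any 1 of 11 of the 14 mice, WT running 3 and FLExDUX4 running 2 and 4 being the exceptions (0.98 to 1.19, largest adjusted p 0.212, without WT control 1). Averaged over genotype, Got1 rose by 0.85 (adjusted p 0.0227), and the call held with the slow fibre covariate (0.57, adjusted p 0.0230). It was lost with limma-voom (0.80, adjusted p 0.0841) and without WT control 1 or 2, WT running 4 or FLExDUX4 control 1 (0.80 to 0.85). Its mean was 171 ± 15.3 CPM in WT control, 371 ± 99.6 in WT running, 208 ± 29.9 in FLExDUX4 control and 313 ± 91.6 in FLExDUX4 running. Mtap, which cleaves methylthioadenosine, the by-product itself, is given for its role and gave -0.14 ± 0.27 and -0.11 ± 0.27.

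Transport, ornithine supply and hypusine formation gave no call. Of 7 transport genes 6 were tested, and Slc38a2, an amino acid carrier that takes methionine, gave -0.32 ± 0.24 in WT and 0.36 ± 0.24 in FLExDUX4. Slc3a2, the heavy chain of amino acid exchangers, gave -0.33 ± 0.22 in FLExDUX4. Of 5 ornithine and arginine genes 2 were tested, and Gatm, which makes the precursor of creatine, gave 1.78 ± 0.87 in WT (adjusted p 0.464). Oat, ornithine aminotransferase, gave 0.07 ± 0.15 in FLExDUX4. Of 4 genes of hypusine, the spermidine-derived residue of eIF5A, 3 were tested, and Dohh, its hydroxylase, gave 0.14 ± 0.20 in WT and -0.10 ± 0.20 in FLExDUX4. Genes of these lists were named where called or where they had the smallest p of their list under running in either genotype, Mettl16, Azin1 and Mtap apart.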

How the data were processed

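Triceps RNA of 14 mice was sequenced from the 3′ end (QuantSeq FWD, 75-base reads, per the labels' protocols). The authors deposited whole-number counts per gene and spike-in, with log2 fold changes and adjusted p-values of their own comparisons. Trimming with cutadapt 1.16, alignment with STAR 2.5.3a and counting with featureCounts 1.6.2 on GRCm38 are named in the submitters' processing notes, as is DESeq2. How reads of near-identical genes were counted is not given in the sources used here.

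Counts were used as deposited. The 99 spike-in rows were kept out of library sizes. Genes with at least 10 counts in enough libraries (edgeR's filterByExpr), 11088 in all, were fitted with edgeR 4.0.16 (TMM, quasi-likelihood test) in R 4.3.3 over all 4 groups, with Benjamini-Hochberg adjustment over all genes tested. The fit was checked on simulated counts drawn at these depths. CPM are TMM-scaled, without a prior count, and correlations used log2 CPM with a prior count of 2. Alternatives were DESeq2 1.42.0, limma-voom 3.58.1, RLE factors, spike-in library sizes, other filters, 2-group fits, removal of mitochondrial genes, summed Amd rows, a slow fibre covariate and each mouse left out. The labels call the samples separate mice and do not pair them. Intervals, SEs and limits cover these mice only. Promoters came from RefSeq, transcripts from GENCODE M21.

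The members, lists and tests were chosen with earlier results of these data known. Pathway genes were named where called, or where they had the smallest p of their list under running in WT or FLExDUX4. The 5 most like genes were taken by correlation.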

Additional observations from a re-analysis of the deposited data

Results flagged for a closer look

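Srm in FLExDUX4 running 3 was at 8.73 CPM, apart from the other 3 mice of its group, which lay at 4.85 to 5.38 CPM. The gap to its nearest neighbour was 0.862 of the group's range, above Dixon's critical value of 0.829 for 4 samples. In all, 18 groups of 4 were checked, and chance flags about 1 in 20.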

How the results depend on the processing

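Of 512 member values under 10 alternatives, 495 kept their direction and their side of the threshold, as did 692 of 756 values with 1 mouse left out. Only Mat2a, for running in WT and averaged over genotype, was called in the main fit. For all other values staying uncalled was likely from the start, so these counts say little about the calls. Under running in WT, where 1 gene of the set was called, 0 were called with spike-in library sizes, limma-voom or the slow fibre covariate, and 0 to 1 with a mouse left out. Under running averaged over genotype, where 1 was called, 2 were called with DESeq2 and 0 with spike-in library sizes or the slow fibre covariate, and 0 to 2 with a mouse left out. The call of Mat2a there was lost without any of 6 mice, WT control 1 (-0.46, adjusted p 0.0996), WT running 4, FLExDUX4 control 1 and 3, and FLExDUX4 running 1 and 2. Over all genes, running in WT gave 55 calls with edgeR, 202 with DESeq2, 604 with spike-in library sizes, 2 with the slow fibre covariate and 0 with limma-voom.

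Spike-in library sizes turned the sign of Mat2b for running in FLExDUX4 (0.031), of Odc1 and Srm for running averaged over genotype (0.065 and 0.18) and for running in WT (0.32 and 0.10), of Sms for genotype in controls (0.25) and of Sat1 for the interaction (-0.065). The slow fibre covariate turned Odc1 (0.19) and Sat1 (-0.0054) for running in WT and Sms for genotype in controls (0.028), and limma-voom turned Sat1 for the interaction (-0.32). Leaving out a mouse turned 48 uncalled values in 22 results, and the range over mice left out holds 0 in each. For genotype in controls it was -0.11 to 0.29 for Mat2b, -0.29 to 0.33 for Odc1, -1.36 to 0.068 for Sat1 and -0.13 to 0.030 for Sms. For genotype in runners it was -0.15 to 0.34 for Amd1, -0.19 to 0.35 for Amd2, -0.12 to 0.00055 for Mat2a, -0.40 to 0.12 for Odc1, -0.48 to 0.21 for Sat1, -0.025 to 0.48 for Smox, -0.15 to 0.032 for Sms and -0.30 to 0.062 for Srm. For the interaction it was -0.52 to 0.10 for Odc1, -0.29 to 1.14 for Sat1 and -0.11 to 0.090 for Sms. For running averaged over genotype it was -0.29 to 0.022 for Odc1 and -0.18 to 0.12 for Srm. For running in FLExDUX4 it was -0.28 to 0.095 for Amd1, -0.18 to 0.22 for Mat2b, -0.50 to 0.46 for Smox and -0.11 to 0.50 for Srm. For running in WT it was -0.34 to 0.28 for Odc1. Apart from the scaling, the cause was not tested. No pairing of mice is given in the labels. Depth limits Sat1 and Srm most, with 0 to 28 and 11 to 55 counts a mouse.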
